A study of Mus musculus with 2 samples.

Results

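Integrins are receptors of the cell surface, each made of 1 alpha and 1 beta subunit, that hold cells to the extracellular matrix and pass signals in both directions. The alpha 1 and alpha 2 subunits (Itga1, Itga2) pair with beta 1 to bind collagens. The alpha 5 subunit (Itga5) pairs with beta 1 to bind fibronectin. Alpha v (Itgav) pairs with beta 1, beta 3, beta 5, beta 6 or beta 8. Its dimers bind ligands that carry the tripeptide RGD, among them vitronectin, osteopontin and some latency peptides of TGF-beta. Beta tails recruit talins and kindlins, and integrin-linked kinase (Ilk), a pseudokinase scaffold, joins them to the actin cytoskeleton together with PINCH and parvin proteins. In epithelia these receptors anchor cells to the basement membrane, and alpha v beta 6 is known from epithelium under repair.

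The genes described are 10 of the 25668 gene symbols in the files, namely 9 integrin subunits and Ilk, chosen by symbol, and each had 1 row in both libraries. The data are transcript levels in 1 library of Trp53 knockout organoids and 1 control library, both from mouse fallopian tube (oviduct) epithelium. Control organoids were WT at Trp53 and came from a mouse carrying Cas9 and EGFP at the Rosa26 locus under the ubiquitous CAG promoter. Both libraries share the treatment label conditioned medium, and neither the age of the animals nor whether the knockout organoids are 1 clone is stated in the labels. The comparison asks what loss of p53 does in this epithelium.

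Values are TPM, that is reads per gene length on a scale with a fixed sum per library, so levels of different genes can be set side by side. With 1 library per genotype no test between genotypes was possible, and no difference has a replicate check. Trp53 itself stood at 2.42 TPM in the knockout library and 83.2 TPM in the control library. Read numbers, recovered from the TPM or estimated as described under processing, summed to 27688213 in the knockout library and 100099420 in the control library, and the 95% intervals given below cover counting error only. The median gene stood at 0.884 of its control level, so a ratio near that value is where the middle of all genes lay. Of 12 oviduct epithelium markers each was above 0 in both libraries, with 2 (Krt19 and Cldn3) higher by at least 2-fold in the knockout library and 3 (Ovgp1, Msx2 and Foxj1) lower. They summed to 14972 TPM in the knockout and 9906 TPM in the control library, and the part of these markers in the results below was not tested. Epcam, the epithelial adhesion molecule, chosen after its values were seen, was at 697 TPM in the knockout and 713 TPM in the control library. The summed TPM of 10 fibroblast markers was 0.0368 in the knockout and 0.119 in the control library, and that of 7 endothelial markers was 0.0674 in the knockout and 0.181 in the control library. Of 7 smooth muscle markers Acta2, an actin that other cells can also make, was at 17.8 TPM in the knockout and 1.07 TPM in the control library, while Myh11 and Des, markers of contractile muscle, were listed at 0 in the knockout library. The part of Acta2 in the results below was not tested. In these bulk libraries fewer cells of a type and less RNA per cell cannot be told apart.

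Each of the 10 genes had a lower TPM in the knockout library than in the control library, by very different amounts. Of the 8 genes whose mean TPM reached 1, 3 (Itga5, Itgb5 and Itgb8) were lower by at least 2-fold on the log2(TPM + 1) scale and 0 were higher by that much. Over all 11228 genes measured at that level, 15.3% passed 2-fold in the lower direction and 8.35% in the higher direction, and 60.1% were lower by any amount. The median difference of the 8 genes was -0.50, against -0.17 over all genes. Itga1 and Itgb3 had mean levels under 1 TPM and are described by their own values. The counting interval of the TPM ratio lay wholly beyond 2-fold lower for 3 of the 8 measured genes, against 15.4% of 10995 measured genes with a transcript length, and for both of the low genes.

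**Figure D1:**
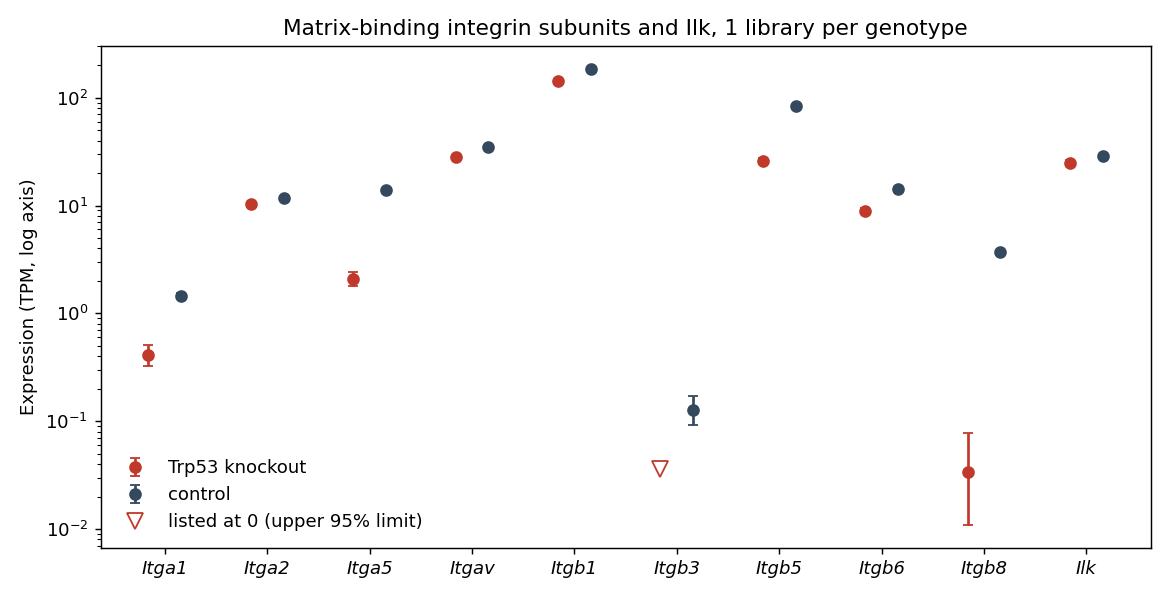
TPM (log axis) of 9 integrin subunits and Ilk in the Trp53 knockout library (red) and the control library (dark blue), 1 library each; points are values, bars are 95% counting intervals, often smaller than the point, and the open triangle is the upper 95% limit of 0.0361 TPM for Itgb3, listed at 0 in the knockout library. Red points lie below the dark points for every gene, narrowly for Itga2 and Ilk and by the widest distance for Itgb8.

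The collagen-binding alpha subunits differed from each other. Itga2, the main collagen receptor subunit of many epithelia, was at 10.3 TPM in the knockout and 11.7 TPM in the control library, a ratio of 0.878 with an interval of 0.825 to 0.934. Set against the median gene this ratio was 0.993, with an interval of 0.933 to 1.06. By counting error alone Itga2 could thus not be told apart from the median gene. Itga1, which prefers basement membrane collagen IV, was low in both libraries, at 0.412 TPM (80 recovered reads) in the knockout and 1.44 TPM (941 recovered reads) in the control library. Its ratio was 0.286, with an interval of 0.225 to 0.360. Itga1 shares 685 exon bases on the same strand with the predicted gene Gm49395 in GENCODE M21, which stood at 1.09 TPM in the knockout and 0.377 TPM in the control library, and the part of this sharing in the Itga1 value was not tested.

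Among the RGD-binding alpha subunits the difference lay mostly in alpha 5. Itga5, the subunit of the classical fibronectin receptor, was at 2.09 TPM in the knockout and 13.9 TPM in the control library, a ratio of 0.150 with an interval of 0.127 to 0.175. Itgav, the common partner of 5 beta subunits, was at 28.5 TPM in the knockout and 35.2 TPM in the control library, a ratio of 0.810 with an interval of 0.780 to 0.840. Alpha v was thus the most abundant of the 4 alpha subunits in both libraries, and it made up 69.0% of their summed TPM in the knockout and 56.5% in the control library. Alpha 5 made up 5.06% in the knockout and 22.4% in the control library, while alpha 2 made up 24.9% in the knockout and 18.8% in the control library. The sum of the 4 was 41.3 TPM in the knockout and 62.3 TPM in the control library.

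Beta 1, among these genes the partner of alpha 1, alpha 2, alpha 5 and alpha v, was the most abundant of the 10 in both libraries. Itgb1 was at 143 TPM in the knockout and 184 TPM in the control library, a ratio of 0.777 with an interval of 0.760 to 0.795, and 0.879 against the median gene. There were 5.02 Itgb1 transcripts per Itgav transcript in the knockout and 5.23 in the control library. Per Itga5 transcript there were 68.5 in the knockout and 13.2 in the control library. Beta 1 also pairs with alpha subunits outside this group, among them Itga3. That subunit was at 170 TPM in the knockout and 83.5 TPM in the control library. These ratios therefore do not cover all partners of beta 1.

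The beta subunits that pair with alpha v showed the widest spread. Itgb5, whose dimer with alpha v binds vitronectin, was at 26.0 TPM in the knockout and 84.3 TPM in the control library, a ratio of 0.309 with an interval of 0.293 to 0.326. Itgb8, which in its dimer with alpha v binds latent TGF-beta, was at 0.0336 TPM (5 recovered reads) in the knockout and 3.70 TPM (1851 recovered reads) in the control library. Its control level was 110.01 times its knockout level, with an interval of 47.1 to 339. The pseudocount shrinks this gap to a difference of -2.19 on the log2(TPM + 1) scale, against -6.78 for the log2 ratio of the TPM values.

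Itgb6, the epithelial partner of alpha v, was at 8.89 TPM in the knockout and 14.4 TPM in the control library, a ratio of 0.619 with an interval of 0.572 to 0.669, which is short of 2-fold. Itgb3, best known from platelets and endothelium, was listed at 0 in the knockout library and stood at 0.128 TPM (44 recovered reads) in the control library. Set against a floor of 3 reads in the knockout library it was 4.36-fold lower there, while the 95% counting interval allowed as little as 3.40-fold. Its other partner, Itga2b of platelets, chosen after its values were seen, was at 5.21 TPM in the knockout and 7.27 TPM in the control library.

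Summed over beta 3, beta 5, beta 6 and beta 8, the partners of alpha v other than beta 1 came to 34.9 TPM in the knockout and 102 TPM in the control library, a ratio of 0.341, while Itgav itself had a ratio of 0.810. There were 0.914 Itgb5 transcripts per Itgav transcript in the knockout and 2.40 in the control library. Within that sum beta 6 made up 25.4% in the knockout and 14.0% in the control library, and beta 5 made up 74.5% in the knockout and 82.2% in the control library. Of all 5 beta subunits, beta 1 made up 80.4% of the summed TPM in the knockout and 64.2% in the control library, and beta 5 made up 14.6% in the knockout and 29.4% in the control library. The share of beta 6 was 4.997% in the knockout and 5.01% in the control library.

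**Figure D2:**
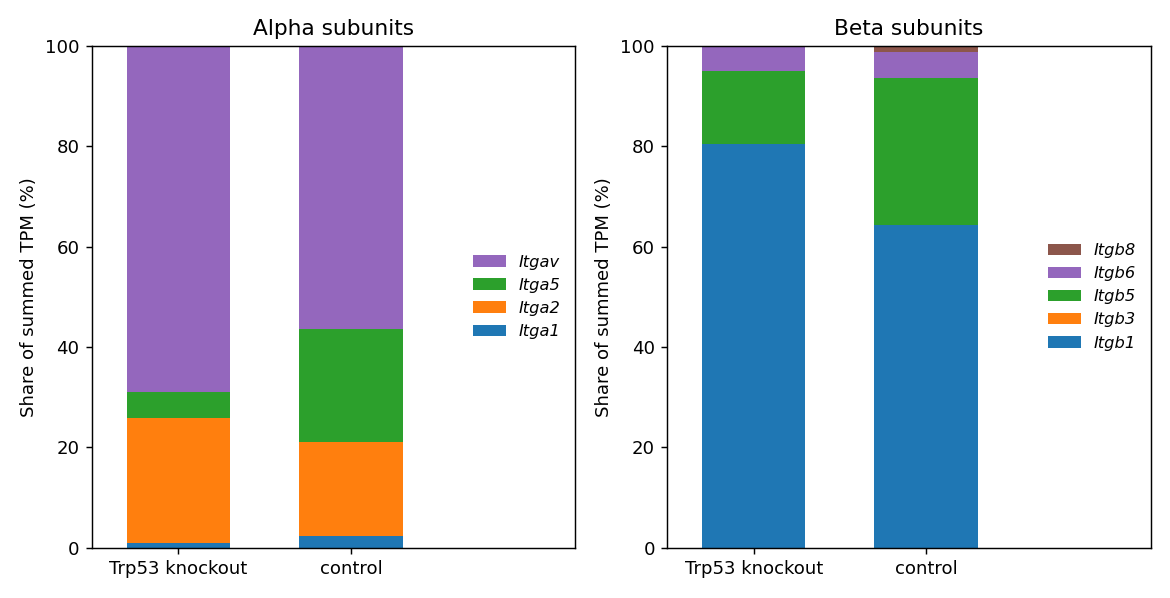
Share of the summed TPM (%) taken by each of the 4 alpha subunits (left panel) and each of the 5 beta subunits (right panel) in the Trp53 knockout and the control library. Itga5 fills 5.06% of the alpha bar in the knockout and 22.4% in the control library, and Itgb5 fills 14.6% of the beta bar in the knockout and 29.4% in the control library. Itgb3 is too small to be seen in either library, and Itgb8 can be seen in the control bar, at 1.29%.

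Ilk, the adaptor, was at 24.9 TPM in the knockout and 28.8 TPM in the control library, a ratio of 0.865 with an interval of 0.799 to 0.936, and 0.978 against the median gene with an interval of 0.904 to 1.06. Ilk therefore could not be told apart from the median gene by counting error alone. For 8 genes, all but Itga2 and Ilk, the interval lay below the median gene. It leaves out the spread between replicates, which is not known here. In GENCODE M21, 2106 of its 2744 exon bases lie opposite exons of Taf10 on the other strand, and 355 opposite Rrp8. Taf10 stood at 75.9 TPM in the knockout and 69.0 TPM in the control library. The library kit keeps strand, but no source used here gives the strand setting of the counting, so reads of Ilk and Taf10 may not have been separated.

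The order of the 10 genes by level differed between the libraries below the first place. In the knockout library it ran Itgb1, Itgav, Itgb5, Ilk, Itga2, Itgb6, Itga5, Itga1, Itgb8 and Itgb3, and in the control library Itgb1, Itgb5, Itgav, Ilk, Itgb6, Itga5, Itga2, Itgb8, Itga1 and Itgb3. Itgb5 (24.7 to 27.4 TPM) and Ilk (23.2 to 26.7 TPM) had overlapping counting intervals in the knockout library. Itgb6 (13.9 to 14.8 TPM) and Itga5 (13.5 to 14.4 TPM) overlapped in the control library, whereas in the knockout library Itgb6 (8.27 to 9.55 TPM) lay well above Itga5 (1.78 to 2.44 TPM).

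Itgav and Itgb6 lie on chromosome 2, whose 902 measured genes had a median difference of 0.20, against -0.17 over all genes. Of the other chromosomes, chromosome 4, which holds none of the 10 genes, had a median of 0.62. On chromosome 2, 12.1% of the measured genes passed 2-fold upward and 10.4% downward. Relative to the median of chromosome 2, the differences of Itgav and Itgb6 were -0.49 and -0.83, against -0.30 and -0.64 as measured. Itgb5 on chromosome 16, Itgb8 on chromosome 12 and Itga5 on chromosome 15 stayed at -1.31, -1.90 and -2.10 relative to their own chromosomes. Itga2 and Ilk moved to 0.06 and 0.02, so their direction depends on the scaling.

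**Figure D3:**
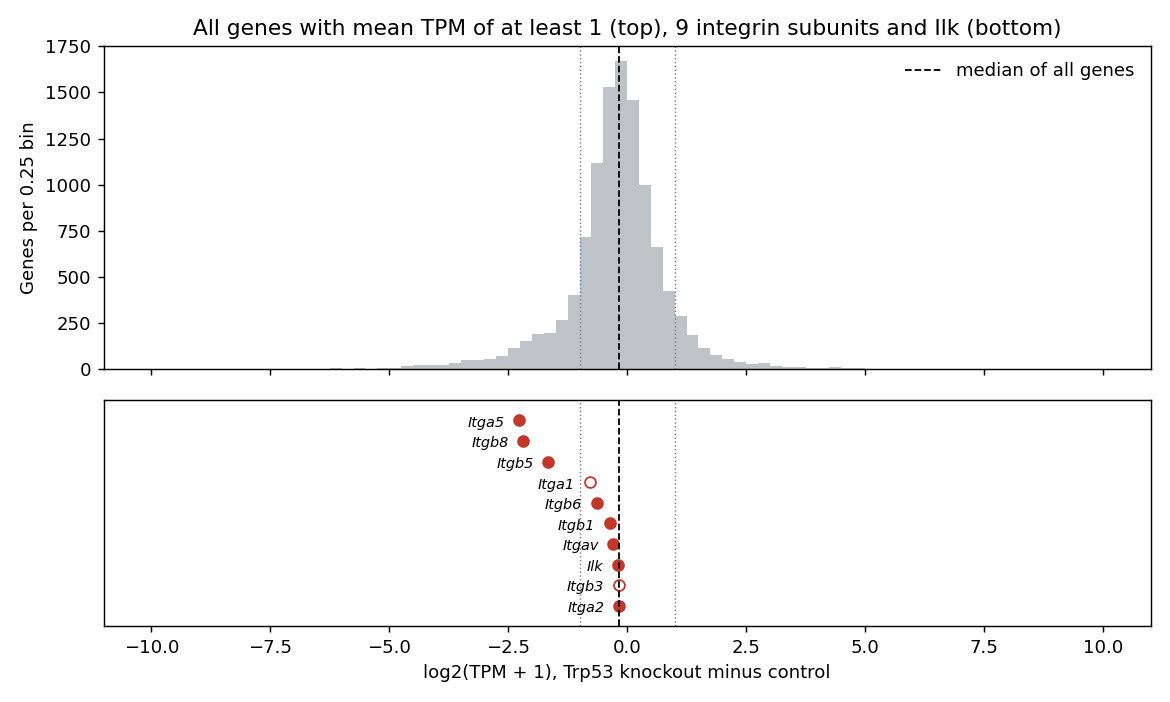
Differences of log2(TPM + 1), Trp53 knockout minus control. The top panel is a histogram of the 11228 genes whose mean TPM reached 1, with the median of -0.17 dashed and 2-fold dotted. In the bottom panel filled points are the 8 genes that pass this level and open points are Itga1 and Itgb3, which do not. Itga5, Itgb8 and Itgb5 lie left of the 2-fold line, and Itga2 and Ilk lie on the median.

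The sequences upstream of the start sites are shown for Itga5 and Itgb5, the genes at least 2-fold lower whose window lies outside annotated exons, and for Itgb1 as the most abundant subunit. Each is the 250 bases before the RefSeq start in GRCm38.p6, 5′ to 3′ on the gene's strand, with matches to the GC box GGGCGG on either strand in capitals. The windows lie at chr15:103366792-103367041 on the minus strand for Itga5, at chr16:33829415-33829664 on the plus strand for Itgb5, and at chr8:128685404-128685653 on the plus strand for Itgb1.
Itga5: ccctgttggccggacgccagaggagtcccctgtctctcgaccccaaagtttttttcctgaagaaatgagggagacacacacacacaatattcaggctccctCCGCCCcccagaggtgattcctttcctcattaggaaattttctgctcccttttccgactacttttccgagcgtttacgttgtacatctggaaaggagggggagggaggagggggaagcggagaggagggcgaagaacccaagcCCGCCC
Itgb5: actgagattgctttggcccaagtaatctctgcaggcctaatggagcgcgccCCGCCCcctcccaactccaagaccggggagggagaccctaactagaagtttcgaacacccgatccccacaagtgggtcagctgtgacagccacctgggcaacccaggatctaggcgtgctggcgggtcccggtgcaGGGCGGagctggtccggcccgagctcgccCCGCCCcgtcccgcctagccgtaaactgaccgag
Itgb1: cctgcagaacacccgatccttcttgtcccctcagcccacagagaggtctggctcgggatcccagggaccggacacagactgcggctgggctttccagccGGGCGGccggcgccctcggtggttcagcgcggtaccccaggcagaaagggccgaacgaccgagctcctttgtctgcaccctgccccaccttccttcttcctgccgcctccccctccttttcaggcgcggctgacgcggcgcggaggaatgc

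The Itga5 window held 2 GC boxes, the Itgb5 window 3 and the Itgb1 window 1, and 32.7% of 32851 promoter windows of the same length held at least 1. None of the 3 windows held the AP-1 motif TGANTCA (in 6.75% of windows) or a p53 half-site (in 7.13%), both strands searched. The TEAD motif GGAATG (in 12.6%) was found in the Itgb1 window and in neither of the others. The base composition was 55.6% G or C for Itga5, 65.2% for Itgb5 and 68.0% for Itgb1, against a median of 52.4%. A match is a run of letters and was not tested as a binding site. The Itgb8 window is not shown because all of its 250 bases fall in exons of that gene in GENCODE M21.

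Of the integrin subunits outside this group, some were higher in the knockout library. Of the 18 other subunits 6 had a mean TPM of at least 1, of which 3 were higher by at least 2-fold and 0 lower, with a median difference of 0.97, where 8.35% of all genes were higher and 15.3% lower. Among the 12 below that level was Itga4, a fibronectin receptor subunit on chromosome 2, chosen after its values were seen. Itga4 was listed at 0 in the knockout library and stood at 0.148 TPM (86 recovered reads) in the control library. Set against a floor of 3 reads it was 8.52-fold lower in the knockout library, while the 95% counting interval allowed as little as 6.78-fold. Itgb7, also below that level and chosen after its values were seen, went the other way. It was at 0.924 TPM (44 estimated reads) in the knockout and 0.0671 TPM (11 estimated reads) in the control library. The ratio was 13.8, with an interval of 6.84 to 28.9. Itga3, a receptor subunit for laminins, was at 170 TPM in the knockout and 83.5 TPM in the control library, and Itga7, another laminin-binding alpha subunit, was at 5.24 TPM in the knockout and 1.71 TPM in the control library. Itga6 and Itgb4, the pair that forms hemidesmosomes, were chosen after their values were seen. Itga6, also on chromosome 2, was at 14.9 TPM in the knockout and 8.38 TPM in the control library, and Itgb4 was at 36.8 TPM in the knockout and 18.9 TPM in the control library, both short of 2-fold on the log2(TPM + 1) scale.

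The widest difference among these subunits was in Itgb2, the beta subunit of leukocyte integrins, at 21.2 TPM (1114 estimated reads) in the knockout and 0.314 TPM (55 estimated reads) in the control library. The ratio was 67.6, with an interval of 52.0 to 91.1. Its alpha partners, also chosen after their values were seen, were at or near 0 in both libraries. Itgal was listed at 0 in the knockout library and at 0.0132 TPM in the control library. Itgam was at 0.0456 TPM in the knockout and 0.0136 TPM in the control library. Itgax was listed at 0 in the knockout library and at 0.00775 TPM in the control library, and Itgad was listed at 0 in both. Ptprc, the pan-leukocyte antigen CD45, was at 0.0110 TPM in the knockout and 0.0886 TPM in the control library, and Adgre1, the macrophage antigen F4/80, was listed at 0 in the knockout library and at 0.0363 TPM in the control library. The 8 immune and platelet markers summed to 26.9 TPM in the knockout and 37.2 TPM in the control library, mostly Cd68, with 4 of them listed at 0 in the knockout and 3 in the control library. Their part in the Itgb2 value was not tested.

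Of the measured genes for proteins that join integrin tails to actin or act in adhesion, 29 of 41 were past 2-fold in neither direction. Of 41 measured adaptor and adhesion genes 9 were lower by at least 2-fold and 3 higher, with a median of -0.27, against 15.3% lower and 8.35% higher over all genes. The kindlins, which bind beta tails and activate integrins, differed by paralog. Fermt2, the broadly expressed kindlin-2, was at 0.166 TPM in the knockout and 15.7 TPM in the control library, a ratio of 0.0106 with an interval of 0.00523 to 0.0201. Fermt3, the kindlin of blood cells, was at 7.25 TPM in the knockout and 0.0218 TPM in the control library, the control value resting on 3 estimated reads. Its ratio of 332 had an interval of 126 to 1815. Fermt1, the epithelial kindlin-1, lies on chromosome 2 and was also named after its values were known. It was the most abundant of the 3 in both libraries, at 48.8 TPM in the knockout and 71.0 TPM in the control library.

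The PINCH proteins, which bind Ilk directly, also differed by paralog. Lims2 (PINCH-2) was at 0.172 TPM in the knockout and 17.4 TPM in the control library, while Lims1 (PINCH-1), chosen after its values were seen, was at 51.0 TPM in the knockout and 55.8 TPM in the control library. Nedd9, a docking protein of focal adhesions, was at 1.03 TPM in the knockout and 18.8 TPM in the control library, and Tns1, a tensin that binds beta tails and actin, was at 0.106 TPM in the knockout and 7.34 TPM in the control library. The tensin Tns4 was higher, at 6.18 TPM in the knockout and 2.49 TPM in the control library, as was the actin crosslinker Flna, at 49.8 TPM in the knockout and 21.9 TPM in the control library.

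Most of the measured ligands that carry RGD or related sites were lower. Of 10 measured genes 6 were lower by at least 2-fold and 1 higher, with a median of -1.49, beside 15.3% and 8.35% of all genes. A further 16 genes of that list had mean levels under 1 TPM. Spp1 (osteopontin), a ligand of alpha v dimers, was at 1373 TPM in the knockout and 5897 TPM in the control library. Ccn1, a matricellular protein, was at 139 TPM in the knockout and 644 TPM in the control library. Its relative Ccn2 was at 24.4 TPM in the knockout and 252 TPM in the control library. Thbs1 (thrombospondin-1), which lies on chromosome 2, was at 9.17 TPM in the knockout and 32.8 TPM in the control library. The higher gene was L1cam, a neural adhesion molecule, at 7.03 TPM in the knockout and 0.581 TPM in the control library. Fibronectin (Fn1), the ligand of alpha 5 beta 1, chosen after its values were seen, was low in both libraries, at 0.00657 TPM in the knockout (1 estimated read) and 0.748 TPM in the control library. The ratio was 0.00879, with an interval of 0.000230 to 0.0510.

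Of 10 measured collagen and laminin chains 2 were higher by at least 2-fold and 2 lower, with a median of -0.24, where the shares over all genes were 8.35% and 15.3%. Lamb3, a chain of laminin 332, was at 42.4 TPM in the knockout and 9.44 TPM in the control library. Lama3, the alpha chain of the same laminin, was at 2.09 TPM in the knockout and 0.374 TPM in the control library. Lamb1, a chain of several basement membrane laminins, was at 12.4 TPM in the knockout and 49.7 TPM in the control library, and Col16a1, a minor collagen, was at 0.193 TPM in the knockout and 3.57 TPM in the control library. The fibrillar collagen genes Col1a1, Col1a2 and Col3a1, on the fibroblast list, were listed at 0 in the knockout library and were at most 0.0085 TPM in the control library.

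Genes of the latent TGF-beta list were past 2-fold in both directions. Not all of their products are bound by alpha v beta 6 or alpha v beta 8. Of 16 measured genes 3 were higher by at least 2-fold, of which 2 are named here, and 4 lower, with a median of 0.06, where 8.35% of all genes were higher and 15.3% lower. Among the ligands, Tgfb1 was at 26.5 TPM in the knockout and 12.02 TPM in the control library, whereas Tgfb2 was at 0.989 TPM in the knockout and 7.91 TPM in the control library. Tgfb3 was at 15.2 TPM in the knockout and 66.1 TPM in the control library. Among the binding proteins that hold the latent form in the matrix, Ltbp1 was at 6.16 TPM in the knockout and 2.55 TPM in the control library, and Ltbp3 was at 17.9 TPM in the knockout and 49.1 TPM in the control library. The co-receptor Tgfbr3 was at 0.457 TPM in the knockout and 2.96 TPM in the control library.

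**Figure D4:**
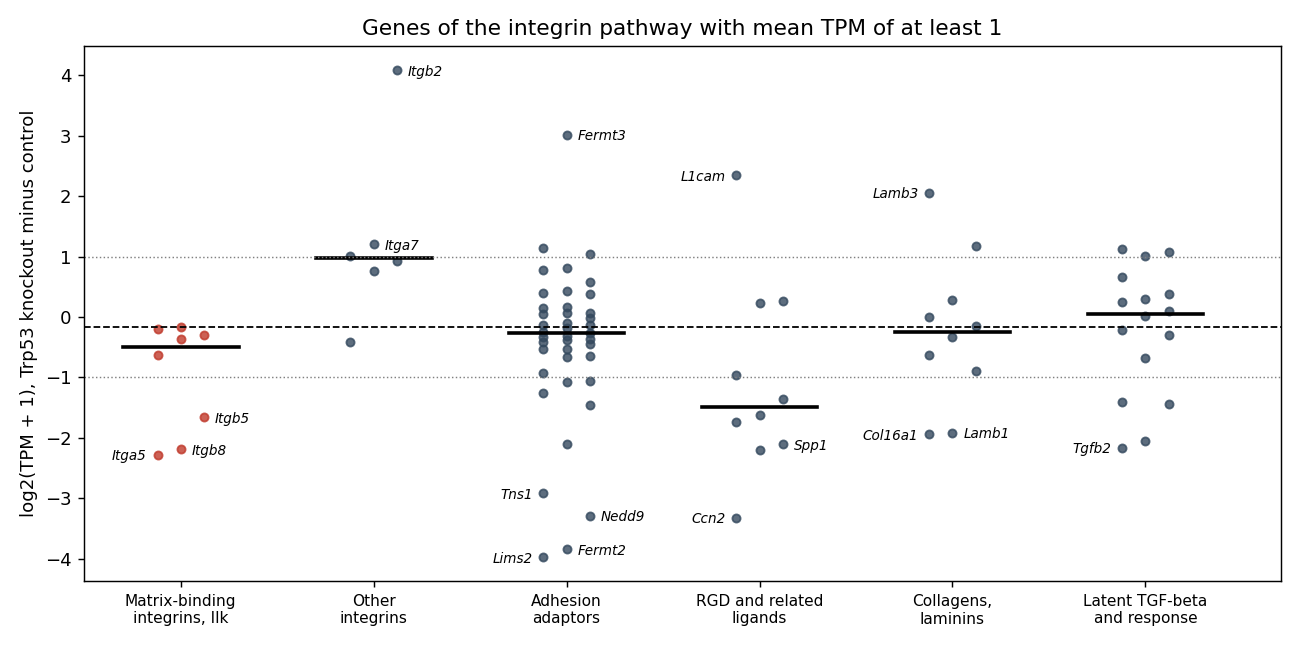
Differences of log2(TPM + 1), Trp53 knockout minus control, for the measured genes of 6 lists; each point is a gene, thick bars are list medians, the dashed line is the median of all genes and dotted lines mark 2-fold. The matrix-binding integrins and Ilk (red) lie at or below -0.17, while the 6 measured other integrins have a median of 0.97 and the RGD ligands one of -1.49.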

How the data were processed

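The authors deposited TPM (per the file headers and the labels, 1 column per library) for 25668 gene symbols, from strand-preserving paired-end libraries, with the build GRCm39 named in the submitters' processing notes. No source used here names the aligner, the counting tool or the annotation.

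Differences are log2(TPM + 1), knockout minus control, called at 2-fold where the mean TPM reached 1. Reads were recovered as TPM times the longest protein-coding transcript length in GENCODE M21, divided by the worth of 1 read at that length (0.0565 TPM in the knockout and 0.0168 TPM in the control library at 1000 bases). Of 10224 genes with over 50 reads in both libraries, 30.9% came out within 0.02 of whole numbers in both, against 0.16% by chance. The same held for 4 of the 10 genes (Itga1, Itgav, Itgb3 and Itgb8), and for the others this length is an assumption and the read numbers are estimates. Ratio intervals are exact Clopper-Pearson intervals at 95%, level intervals exact Poisson, and a library listed at 0 was given a floor of 3 reads. All cover counting error only.

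GENCODE M21 and RefSeq (both GRCm38) gave chromosomes for 11180 of the 11228 measured genes, and RefSeq the upstream sequences. Named genes are Trp53, the 10 genes, and up to 4 per list and direction past 2-fold. Of those, 1 gene is not reported here. Genes named outside the rule, marker and overlapping genes included, were chosen after their values were seen. The genes and lists were chosen with earlier results of these data known. Python 3.11.15, pandas 2.3.3 and scipy 1.17.1 were used.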

Additional observations from a re-analysis of the deposited data

How the results depend on the processing

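No paired analysis was possible because each genotype has 1 library, and for the same reason no replicate could be left out. Among those of the 10 genes that passed the level filter, the count of at least 2-fold lower genes was 3. Over the 9 alternatives, 1 of which raised the cut to 4-fold, the count ranged from 2 to 4. The count of higher genes was 0 in each. Itga5 and Itgb5 stayed beyond 2-fold lower under the 6 alternatives that give single differences, and Itgb8 under 5 of them, with -0.79 at a pseudocount of 5. The median difference of the integrin genes, -0.50, was -0.36 at a mean TPM of at least 5, -0.33 after rescaling by the median ratio, -0.37 after quantile normalization, -0.64 without mitochondrially encoded genes and the 100 highest genes, and -0.66 with the median of the own chromosome subtracted. Over all genes, 937 higher and 1715 lower became 563 and 930 at a pseudocount of 5, 267 and 661 at 4-fold, and 1091 lower at a mean TPM of at least 5. Quantile normalization moved the median of all genes to 0.03, and the share of higher genes among all calls to 49.4%, against 35.3% as measured. Itga2 changed direction under quantile normalization (0.06) and with the own chromosome subtracted (0.06), and Ilk with the own chromosome subtracted (0.02). Depth limits Itgb8 and Itgb3, which rest on 5 and 0 reads in the knockout library.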
